A study of Mus musculus with 7 samples.

Results

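The genes described here are 9 genes of the cellular response to low oxygen, Hif1a, Epas1, Egln1, Egln3, Vegfa, Adm, Ankrd37, Bnip3 and Epo, taken by their symbols from the table of kidney gene expression. All 9 were among the 17537 genes listed. Of these, 8 reached the level needed for testing, which was 1 CPM in 2 or more libraries, while Epo did not. CPM is a gene's share of the reads of its library, times a factor that normalizes that library to the others. The RNA came from whole renal tissue of 7 C57BL/6 mice, with 1 polyA-selected library per mouse. Nondiabetic control mice (C, replicates 2, 8 and 9) received the buffer without toxin. Diabetic mice (DM-22, replicates 1 and 2) received streptozotocin, a toxin of the insulin-producing beta cells, at a low dose of 60 mg/kg on 5 days, and stayed hyperglycemic for 22 weeks. Treated diabetic mice (DM+SGLT2i, replicates 1 and 2) received the same toxin and, after 16 weeks, 6 weeks of dapagliflozin, given through the drinking water at 25 mg/kg. Dapagliflozin inhibits SGLT2, the carrier that returns filtered glucose from the urine to the blood in the proximal tubule. The labels give wild-type male mice aged 8 to 10 weeks for all groups, while the methods of the study give both sexes and a start at 8 weeks. Streptozotocin models insulin deficiency, and a bulk kidney library mixes cortex, medulla and all cell types in whatever proportion the piece of tissue held.

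Hypoxia-inducible factors (HIF) are transcription factors made of an oxygen-regulated alpha subunit and the constant partner ARNT. When oxygen is present, prolyl hydroxylases of the EGLN family mark the alpha subunit, the VHL complex binds it, and it is degraded, so that HIF activity is set mainly by protein stability and only partly by the level of the mRNA. When oxygen falls, the alpha subunits accumulate and bind the hypoxia response element, whose core is ACGTG or GCGTG, near genes of glucose use, vessel growth, mitophagy and red cell formation. In the kidney, HIF-1 alpha is found mainly in tubular cells, HIF-2 alpha mainly in endothelial and interstitial cells, and the medulla works at a low oxygen tension even in health.

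The upstream sequences of the 4 members that had high levels in an overlapping set of libraries, described further on, are shown to let the core of the element be seen in place. They are the 250 bases before a start listed by RefSeq on GRCm38.p6, read 5′ to 3′ along the gene, with ACGTG and GCGTG and, as their reverse complements, CACGT and CACGC in capitals. The windows are chr12:73907617-73907866 on the plus strand for Hif1a, and on the minus strand chr12:54203875-54204124 for Egln3, chr8:45999851-46000100 for Ankrd37 and chr7:138909507-138909756 for Bnip3. They hold 3, 1, 4 and 5 matches, where CACGTG, which reads the same on both strands, counts once on each. The windows of Hif1a and Ankrd37 lie inside the longer gene spans of the GENCODE annotation given further on, and for Hif1a and Egln3 the bases after the RefSeq start were not found whole in a GENCODE transcript.
Hif1a: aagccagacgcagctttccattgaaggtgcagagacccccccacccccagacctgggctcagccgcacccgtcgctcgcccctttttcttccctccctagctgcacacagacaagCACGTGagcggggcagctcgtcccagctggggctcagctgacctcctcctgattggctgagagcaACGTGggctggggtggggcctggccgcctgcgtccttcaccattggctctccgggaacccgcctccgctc
Egln3: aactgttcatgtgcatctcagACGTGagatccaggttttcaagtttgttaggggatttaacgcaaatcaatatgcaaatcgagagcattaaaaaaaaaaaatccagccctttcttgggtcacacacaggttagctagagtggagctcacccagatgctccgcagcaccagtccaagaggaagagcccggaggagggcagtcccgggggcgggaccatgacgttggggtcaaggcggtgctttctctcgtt
Ankrd37: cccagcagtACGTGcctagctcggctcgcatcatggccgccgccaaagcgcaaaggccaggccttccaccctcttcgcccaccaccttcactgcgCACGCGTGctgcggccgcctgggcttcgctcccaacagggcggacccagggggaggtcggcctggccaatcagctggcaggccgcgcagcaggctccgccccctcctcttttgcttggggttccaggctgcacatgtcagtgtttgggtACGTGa
Bnip3: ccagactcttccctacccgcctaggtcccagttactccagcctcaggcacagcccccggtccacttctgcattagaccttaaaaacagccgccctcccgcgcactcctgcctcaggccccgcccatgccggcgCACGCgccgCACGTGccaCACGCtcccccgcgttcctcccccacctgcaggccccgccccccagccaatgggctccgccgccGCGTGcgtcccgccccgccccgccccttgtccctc
Of the 9 members, 8 had an entry in the promoter table (Epas1 had none), with 9 windows in all, and 8 of these windows held at least 1 match. Vegfa had a window at each of 2 starts: chr17:46025164-46025413, inside the gene, held 2 matches, and chr17:46032378-46032627, at the upstream end of the gene, held 0. A match was also present in 38.6% of all 32817 windows of this length, and a match to ACGTG on either strand in 16.6%, so a match is a description of the letters and not a site shown to be bound.

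Depth was similar across the libraries, with between 46456125 and 56541594 reads on listed genes. The TMM factors, which normalize the libraries to each other, were 0.891 to 1.08. With depth and factor together, 1 read was worth 0.0180 to 0.0231 CPM. Markers of kidney epithelium were present in every library, the 7 proximal tubule markers among them summing to between 6183 and 16465 CPM. Libraries stood apart within their groups. C replicate 2 had a summed level of 6 tubular injury markers of 5119 CPM against 655 and 562 in the other controls. Most of these injury sums was Spp1, at 4898, 638 and 542 CPM. The proximal tubule sum of C replicate 2 was 6183 CPM against 16465 and 14173. DM-22 replicate 1 had a proximal tubule sum of 6255 CPM and a thick ascending limb sum of 15099 CPM, against 16302 and 4899 in DM-22 replicate 2. DM+SGLT2i replicate 1 held 1089 CPM of adipose tissue markers, against 34.1 to 79.7 in the other 6 libraries, and C replicate 9 held 2574 CPM of immediate early genes against 61.5 to 206. Results that rest on C replicate 2 are therefore given with and without it. In bulk tissue, fewer cells of a type and less RNA per cell cannot be told apart.

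**Figure D1:**
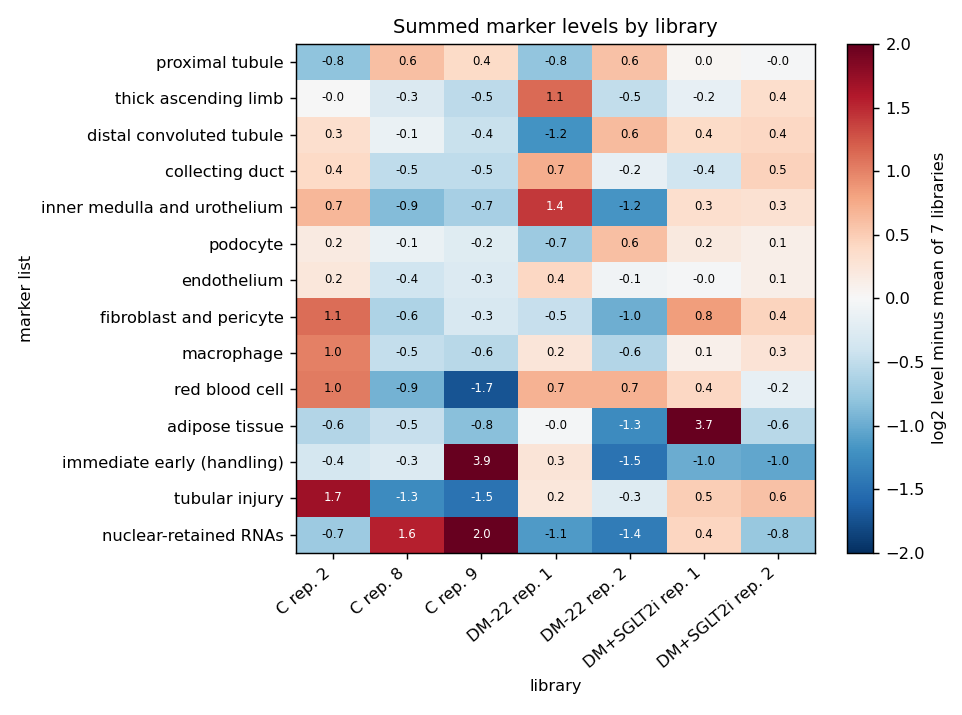
Summed levels of 14 marker lists in each of the 7 libraries, as log2 of the summed CPM minus the mean over the libraries (color, cut at 2 in either direction, with the value printed). C replicate 2 stands out for tubular injury, DM-22 replicate 1 for thick ascending limb and inner medulla, DM+SGLT2i replicate 1 for adipose tissue, and C replicates 8 and 9 for nuclear-retained RNAs.

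Per kilobase of merged exon, the members spanned a wide range of levels. Bnip3 had the highest level, with 82.5 ± 12.5 RPKM (CPM divided by the exon length in kilobases, mean ± SD, n = 7 libraries over all groups). Epas1 followed with 33.7 ± 7.27 RPKM, Vegfa with 28.9 ± 15.5 RPKM and Egln1 with 27.0 ± 2.75 RPKM, and the ranges of these 3 neighbours overlapped. Hif1a had 17.6 ± 3.04 RPKM, and its highest library, at 22.1 RPKM, lay just under the lowest for Egln1, at 22.2 RPKM. Egln3 had 9.45 ± 3.53 RPKM and Adm 4.58 ± 1.16 RPKM, and the range of Egln3 overlapped both that of Hif1a and that of Adm. Ankrd37, with 0.735 ± 0.321 RPKM, and Epo, with 0.397 ± 0.120 RPKM, were the lowest and overlapped each other, with no overlap with Adm. Bnip3 did not overlap with Epas1.

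**Figure D2:**
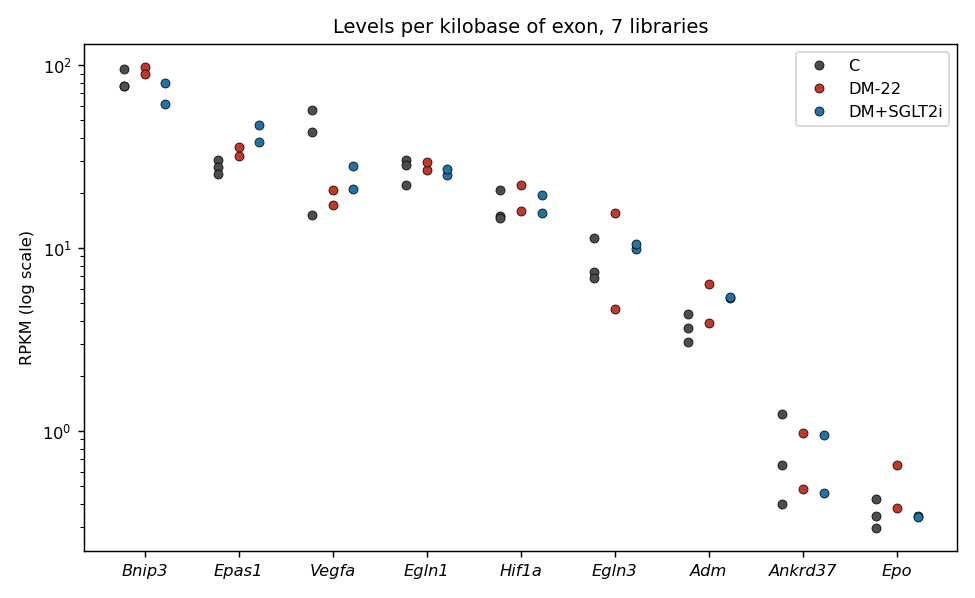
Level of the 9 members per kilobase of exon in RPKM (log axis), 1 point per library, colored by group. The members are ordered by their mean over the 7 libraries, from Bnip3 at 82.5 to Epo at 0.397 RPKM, and the 3 groups overlap for most of them.

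Across all libraries, none of the 8 tested members differed between groups at an adjusted p-value under 0.05 in limma, a linear model that shares its estimate of the spread across genes. The same held for the table as a whole, where 0% of the 13976 genes tested passed in DM-22 against C, in DM+SGLT2i against C, in DM+SGLT2i against DM-22 and in all 4 diabetic libraries against C. Before adjustment, p was under 0.05 for 625, 151, 547 and 285 genes in these comparisons, which is 4.47%, 1.08%, 3.91% and 2.04% of those tested, and for 0, 1, 0 and 1 of the members, the 1 being Epas1 both times. The smallest adjusted p-values of any gene in limma were 0.804, 0.9997, 0.881 and 0.988. The sizes below are therefore estimates with their intervals, and a missed threshold does not show that levels were equal.

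Hif1a encodes HIF-1 alpha, the oxygen-regulated subunit found mainly in tubular cells (chromosome 12, 73901375 to 73947530, plus strand, GRCm38). Its level was 122, 88.1 and 86.2 CPM in C replicates 2, 8 and 9, 130 and 94.4 CPM in DM-22 replicates 1 and 2, and 91.5 and 114 CPM in DM+SGLT2i replicates 1 and 2. Each group held high and low libraries, and all 3 groups overlapped. The log2 fold change was 0.18 (95% interval -0.36 to 0.73) in DM-22 against C, 0.070 (-0.48 to 0.61) in DM+SGLT2i against C and -0.11 (-0.71 to 0.48) between the diabetic groups. Leaving out C replicate 2 put both DM-22 libraries above the remaining controls, as in 29.9% of all genes, with an estimate of 0.35 (-0.13 to 0.82). Both DM+SGLT2i libraries were then above these controls too, as in 27.8% of all genes.

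Epas1 encodes HIF-2 alpha, the alpha subunit known for driving erythropoietin in interstitial cells and for its role in endothelium (chromosome 17, 86753700 to 86833410, plus strand). Its level was 169, 155 and 142 CPM in C replicates 2, 8 and 9, 178 and 200 CPM in DM-22 replicates 1 and 2, and 262 and 213 CPM in DM+SGLT2i replicates 1 and 2. All 4 diabetic libraries lay above all 3 controls, and both treated libraries lay above both untreated ones. Against C, the log2 fold change was 0.61 with a standard error of 0.16 (95% interval 0.22 to 0.99) in DM+SGLT2i, a 1.52-fold higher level, with an unadjusted p of 0.0077 and an adjusted p of 0.9997 in limma. It was 0.29 (-0.097 to 0.67, adjusted p = 0.804 in limma) in DM-22 and 0.45 (0.12 to 0.77, adjusted p = 0.988 in limma) over all diabetic libraries. The exact two-sided permutation test of the 4 diabetic against the 3 control libraries gave p = 0.0571, the smallest that the 35 arrangements can give, so that this test cannot pass 0.05 here.

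Epas1 was the only member whose diabetic and control libraries did not overlap, a pattern that 1.31% of all genes tested showed in the same direction. The highest Epas1 level was in DM+SGLT2i replicate 1, the library with 1089 CPM of adipose markers, and without that library the log2 fold change in DM+SGLT2i against C was 0.46 (-0.04 to 0.95). The 8 endothelial markers summed to 667, 433 and 473 CPM in C replicates 2, 8 and 9, 764 and 541 CPM in DM-22 and 563 and 620 CPM in DM+SGLT2i. The overlap with the controls rests on C replicate 2, and all 4 diabetic sums lay above those of the other controls, the same direction as Epas1. Between the diabetic groups the endothelial sums overlapped, and the highest was in DM-22 replicate 1, the diabetic library with the least Epas1. The 8 fibroblast and pericyte markers summed to 743, 223 and 275 CPM in C replicates 2, 8 and 9. They summed to 250 and 174 CPM in DM-22 and 614 and 467 CPM in DM+SGLT2i. Between the diabetic groups they moved the same way as Epas1. Against C they did not, as the DM-22 sums lay within or below the controls and C replicate 2 had the highest sum. The part of adipose, endothelial or interstitial content in the Epas1 result was not tested. Per kilobase, there was less Hif1a than Epas1 mRNA in every library, with a ratio of 0.540 to 0.683 in C, 0.446 and 0.692 in DM-22 and 0.331 and 0.510 in DM+SGLT2i.

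The hydroxylases differed from each other in their spread. Egln1 encodes PHD2, the main oxygen sensor that sets HIF alpha levels in normal oxygen (chromosome 8, 124908587 to 124949324, minus strand). Its level was 79.8, 109 and 102 CPM in C replicates 2, 8 and 9, 95.7 and 106 CPM in DM-22, and 90.6 and 97.0 CPM in DM+SGLT2i. The lowest library was C replicate 2, and the groups overlapped. The estimates against C were 0.067 (-0.34 to 0.47) in DM-22 and -0.036 (-0.44 to 0.37) in DM+SGLT2i on the log2 scale.

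Egln3 encodes PHD3, a hydroxylase that is itself a target of HIF (chromosome 12, 54178981 to 54203860, minus strand). Its level was 30.4, 19.8 and 18.3 CPM in C replicates 2, 8 and 9, 41.1 and 12.4 CPM in DM-22 replicates 1 and 2, and 26.2 and 27.9 CPM in DM+SGLT2i. The DM-22 libraries were the highest and the lowest of all 7, a 3.32-fold span within 1 group. The log2 estimate of 0.028 (-1.13 to 1.18) in DM-22 against C became -0.82 without DM-22 replicate 1 and 0.87 without DM-22 replicate 2. In DM+SGLT2i against C it was 0.28 (-0.88 to 1.43). The ratio of Egln3 to Egln1 per kilobase followed the same libraries, from 0.158 in DM-22 replicate 2 to 0.581 in DM-22 replicate 1.

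Vegfa encodes vascular endothelial growth factor A, which podocytes and tubular cells supply to the renal capillaries (chromosome 17, 46016993 to 46032369, minus strand). Its level was 64.8, 184 and 244 CPM in C replicates 2, 8 and 9, 74.0 and 88.7 CPM in DM-22 replicates 1 and 2, and 121 and 90.1 CPM in DM+SGLT2i replicates 1 and 2. C replicate 2 was the lowest of all 7 libraries and the other controls were the highest, so that the control group spanned every diabetic value. With all controls, the log2 fold change was -0.81 (95% interval -2.09 to 0.46, adjusted p = 0.804 in limma) in DM-22 and -0.45 (-1.72 to 0.82, adjusted p = 0.9997 in limma) in DM+SGLT2i.

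Without C replicate 2, all diabetic libraries lay below both remaining controls in Vegfa, as they did in 21% of all genes tested. The log2 fold change was then -1.38 (-1.91 to -0.85) in DM-22, with an unadjusted p of 0.00074 and an adjusted p of 0.0820 in limma, -1.02 (-1.55 to -0.49, adjusted p = 0.122 in limma) in DM+SGLT2i and -1.20 (-1.66 to -0.74, adjusted p = 0.0650 in limma) over all diabetic libraries. No adjusted p reached the threshold. Between the diabetic groups, both DM+SGLT2i libraries were above both DM-22 libraries, by 0.36 on the log2 scale (-1.03 to 1.76 with all libraries). C replicate 2 does not enter this estimate, but it widens the pooled spread. The standard error of Vegfa in DM-22 against C was 0.53 with that library and 0.22 without it.

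The RNAs that are retained in the nucleus were highest in the libraries with the most Vegfa. The summed level of Malat1, Neat1 and Meg3 was 627 CPM in C replicate 9, 457 in C replicate 8 and 210 in DM+SGLT2i replicate 1, and 58.5 to 94.0 CPM in the other 4 libraries, and the 3 libraries highest in this sum were the 3 highest in Vegfa, in the same order. The 3 genes whose pattern over the 7 libraries was most like that of Vegfa were Zmym2, Maml1 and Dmtf1, with a Pearson r of 0.995, 0.994 and 0.994 on the log2 scale, given as a description. The 7 podocyte markers ranged from 339 CPM in DM-22 replicate 1 to 853 CPM in DM-22 replicate 2, both in libraries with low Vegfa. What part nuclear RNA, podocyte content or tissue composition has in the Vegfa levels was not tested.

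Adm encodes adrenomedullin, a vasodilator peptide induced by HIF (chromosome 7, 110627661 to 110629820, plus strand). Its level was 7.06, 4.97 and 5.92 CPM in C replicates 2, 8 and 9, 6.34 and 10.3 CPM in DM-22 replicates 1 and 2, and 8.59 and 8.73 CPM in DM+SGLT2i. Both treated libraries lay above all controls, while the DM-22 libraries straddled the highest control. The log2 fold change was 0.51 (-0.096 to 1.12, adjusted p = 0.9997 in limma) in DM+SGLT2i and 0.42 (-0.19 to 1.03, adjusted p = 0.804 in limma) in DM-22. Without C replicate 2 the estimate in DM+SGLT2i was 0.63 (0.012 to 1.24, adjusted p = 0.272 in limma). Without DM-22 replicate 2 the estimate in DM-22 was 0.09, and without DM-22 replicate 1 it was 0.75.

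Ankrd37 encodes a small ankyrin repeat protein whose gene responds strongly to HIF-1 in many cell types (chromosome 8, 45996902 to 46005707, minus strand). It was barely above the level needed for testing, with 1.91, 0.611 and 1.004 CPM in C replicates 2, 8 and 9, 1.49 and 0.740 CPM in DM-22, and 0.705 and 1.46 CPM in DM+SGLT2i, which rest on 29 to 104 reads. Every group held libraries about as high and as low as those of the others. The log2 estimates were -0.016 (-1.08 to 1.05) in DM-22 and -0.048 (-1.11 to 1.02) in DM+SGLT2i against C. In the GENCODE annotation 22.7% of the exon bases of Ankrd37 lie opposite Lrp2bp, which had at most 0.774 CPM, and 3.70% opposite Ufsp2, which reached 46.4 CPM, well above Ankrd37 itself. The library kit keeps the strand, but how the reads were counted is not given in the sources used here.

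Bnip3 encodes a mitochondrial outer membrane protein that HIF induces and that directs mitochondria to mitophagy (chromosome 7, 138890836 to 138909519, minus strand). Its level was 215, 175 and 173 CPM in C replicates 2, 8 and 9, 221 and 203 CPM in DM-22, and 139 and 182 CPM in DM+SGLT2i replicates 1 and 2. Both treated libraries lay below both untreated diabetic libraries, and both groups overlapped with the controls. The log2 fold change between the diabetic groups was -0.41 (-0.88 to 0.058), with an unadjusted p of 0.0765 and an adjusted p of 0.881 in limma. Without C replicate 2, which does not enter this estimate but does enter the pooled spread, the interval was -0.81 to -0.010, with an unadjusted p of 0.0460 and an adjusted p of 0.464 in limma. Against C it was 0.18 (-0.25 to 0.61) in DM-22 and -0.23 (-0.66 to 0.20) in DM+SGLT2i. Its paralog Bnip3l had 0.366 to 0.480 times the level of Bnip3 per kilobase in the 7 libraries, and 22.2% of the exon bases of Bnip3 lie opposite the antisense gene Gm45507.

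Epo encodes erythropoietin, the hormone of red cell formation that interstitial cells of the kidney release under HIF-2 (chromosome 5, 137483020 to 137533242, minus strand). Only 12 to 31 reads per library fell on it, and its level was 0.293, 0.253 and 0.363 CPM in C replicates 2, 8 and 9, 0.558 and 0.324 CPM in DM-22, and 0.294 and 0.289 CPM in DM+SGLT2i. DM-22 replicate 1 was the highest, with an exact Poisson 95% interval of 0.379 to 0.792 CPM, which covers counting error only and overlaps those of the other 6 libraries. The exact two-sided permutation test of the diabetic against the control libraries gave p = 0.514, where 0.0571 is the smallest it can give. The annotated gene reaches upstream to an exon that shares 104 bases, 12.2% of its exon bases, with Gnb2 on the same strand (listed at 0.163 CPM at most), where a read cannot be assigned to either gene by its position.

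**Figure D3:**
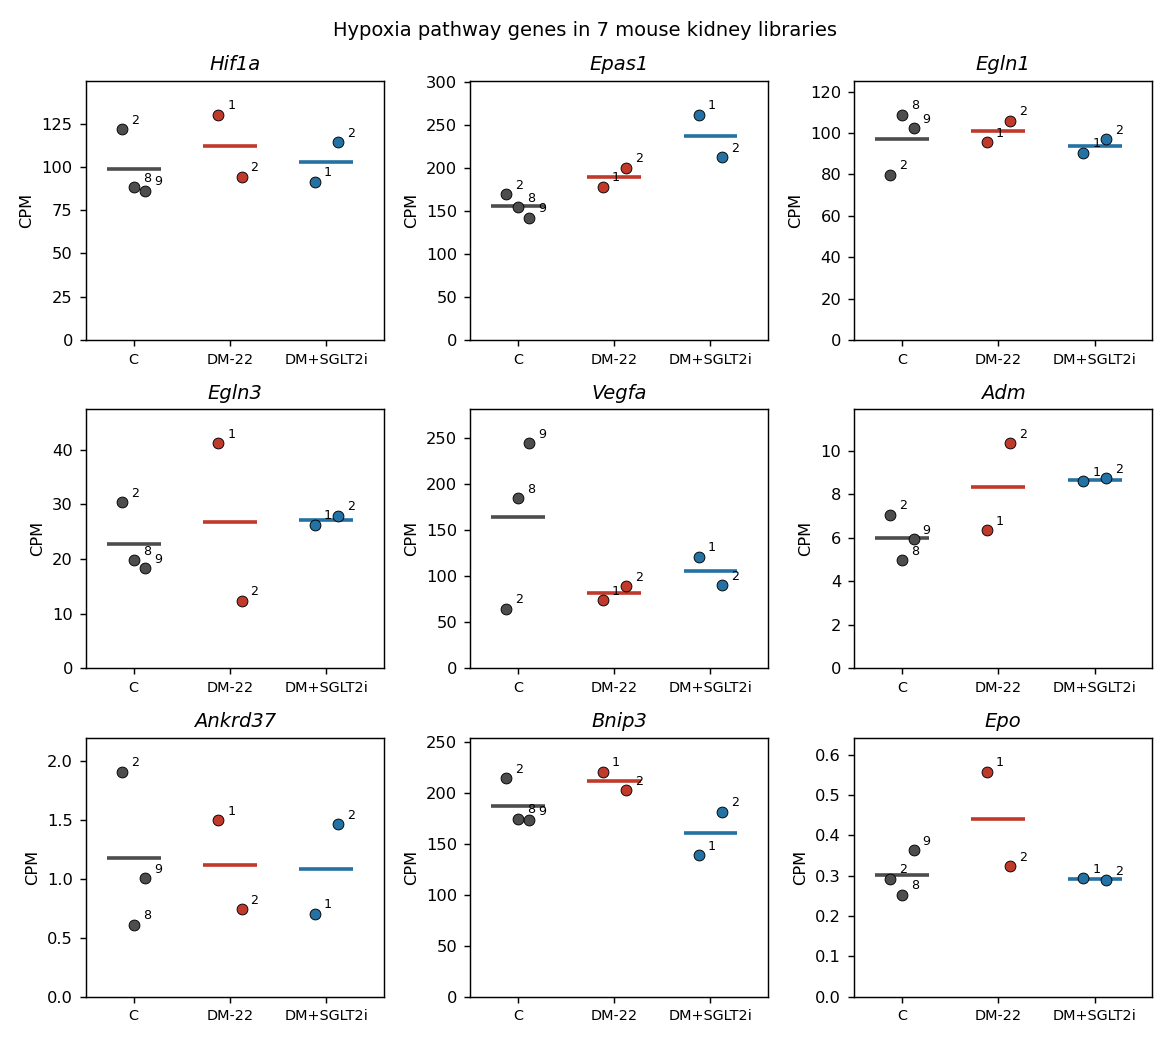
Level of the 9 members in CPM (each axis starts at 0), with 1 point per library, the replicate number beside it and a bar at the group mean. For Epas1 the 4 diabetic libraries (178 to 262) sit above the 3 controls (142 to 169), for Vegfa the controls span 64.8 to 244, and for Egln3 the DM-22 libraries span 12.4 to 41.1.

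Groups without overlap were counted over the members and over all genes. In DM-22 against C, 1 of 8 members (Epas1) was higher in both DM-22 libraries than in every control, against 10.8% of all genes, and 0 were lower throughout, against 9.29%. In DM+SGLT2i against C, 2 of 8 (Adm and Epas1) were higher throughout, against 5.67%, and 0 were lower, against 6.59%. Between the diabetic groups, Epas1 and Vegfa were higher in both DM+SGLT2i libraries than in both DM-22 libraries, against 21.4%, and Bnip3 was lower, against 20%. The median log2 fold change of the 8 members was 0.12 in DM-22 and 0.017 in DM+SGLT2i against C, where the medians over all genes were 0.0045 and -0.013.

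Leaving out C replicate 2 raised the counts against C, and it raised the background as well. Both DM-22 libraries then exceeded both remaining controls in Adm, Bnip3, Epas1 and Hif1a, 4 of 8 members against 29.9% of genes, and were lower in Vegfa, against 29.7%. Both DM+SGLT2i libraries were then higher in Adm, Egln3, Epas1 and Hif1a, 4 of 8 against 27.8%, and lower in Egln1 and Vegfa, against 33.8%. The median of the members was 0.28 in DM-22 and 0.24 in DM+SGLT2i on the log2 scale, and still 0 members passed the adjusted threshold in limma, where 0.0144% and 0.123% of genes did. Over all diabetic libraries against C it was 0 members and 0.202% of genes. Both comparisons share the control libraries, so their similarity is in part built in.

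In the settings run, members were called only when both libraries with the lowest proximal tubule sums, C replicate 2 and DM-22 replicate 1, were left out, a setting chosen after the data had been seen. DM-22 is then 1 library, assumed to vary like the others, and the spread comes from C replicates 8 and 9 and the DM+SGLT2i pair. In this setting limma called Vegfa (log2 fold change -1.25, adjusted p = 0.0406) and Adm (0.87, adjusted p = 0.0489) in DM-22 against C, 2 of 8 members against 5.39% of genes. It called Epas1 (0.67, adjusted p = 0.0324), Egln3 (0.50, adjusted p = 0.0449), Vegfa (-1.02, adjusted p = 0.0241) and Adm (0.63, adjusted p = 0.0432) in DM+SGLT2i against C, 4 of 8 against 12.8%. Between the diabetic groups it called Egln3, 1 of 8 members against 3.52% of genes, and over all diabetic libraries against C it called Adm, Epas1 and Vegfa, 3 of 8 against 12.1%. Leaving out C replicate 2 and DM+SGLT2i replicate 1 instead gave 0 members and 0% of genes in limma.

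**Figure D4:**
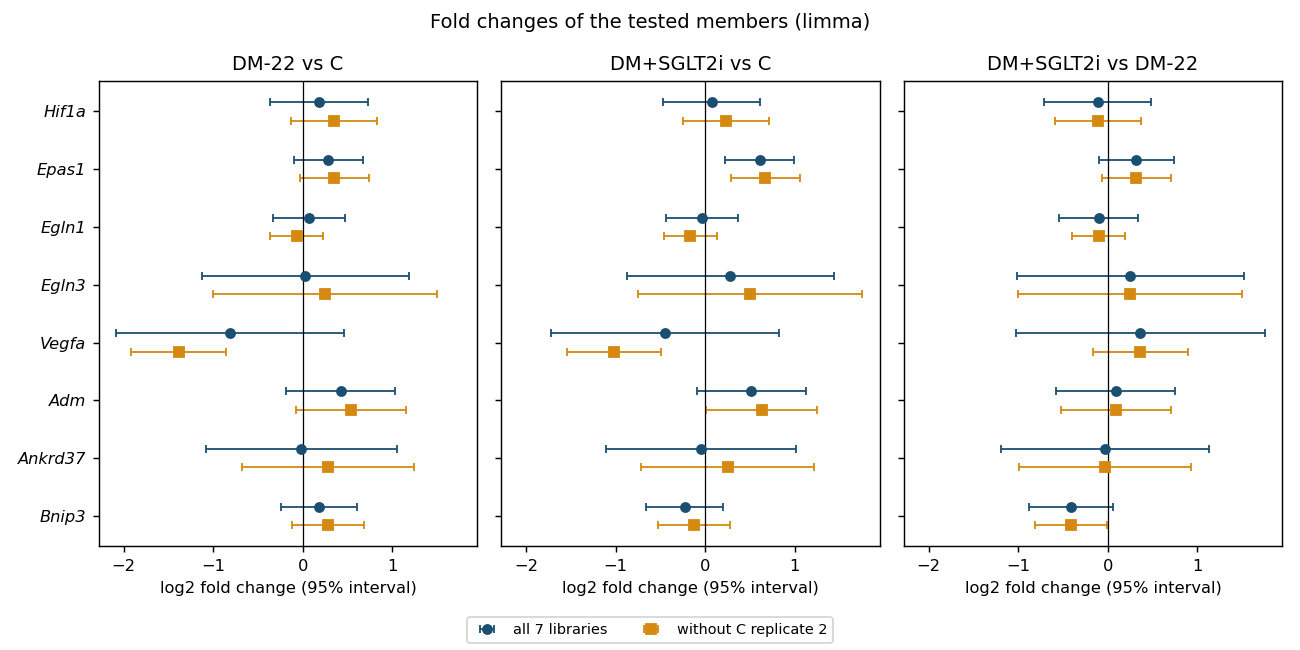
Log2 fold change with its 95% interval (limma) of the 8 tested members in 3 comparisons, with all 7 libraries (circles) and without C replicate 2 (squares). The interval excludes 0 for Epas1 in DM+SGLT2i against C with either set, for Vegfa against C, Adm in DM+SGLT2i against C and Bnip3 in DM+SGLT2i against DM-22 only without C replicate 2, and the interval of Vegfa narrows from -2.09 to 0.46 to -1.91 to -0.85 in DM-22 when that library is left out.

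The members differed widely in their spread within groups. On the log2 scale, the standard deviation within groups was 0.731 for Vegfa, larger than that of 92.0% of all genes tested, and 0.658 for Egln3 and 0.528 for Ankrd37, larger than that of 89.8% and 83.4%. It was 0.287 for Adm, 0.279 for Hif1a, 0.188 for Bnip3 and 0.178 for Egln1, around or below the median over all genes of 0.256. Epas1 had the smallest, 0.151.

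Hif1a, Egln3 and Ankrd37 had their 3 highest levels in the same libraries, C replicate 2, DM-22 replicate 1 and DM+SGLT2i replicate 2, 1 from each group. These libraries were picked after the values were seen, so the count of 3 of 8 members is a description, beside 9.09% of all genes with the same 3 libraries highest and 7.92% with the same 3 lowest. Bnip3 shared the first 2 of these libraries as its highest. Among 18 genes of glucose use that HIF can induce, 7 had the same 3 libraries highest: the glycolytic enzymes Aldoa, Aldoc, Hk1, Pfkl, Pfkp and Pkm and the glucose carrier Slc2a1. In the other lists of the pathway it was 4 of 21 genes of HIF subunits and oxygen sensing and 4 of 18 of mitophagy and stress (both lists hold members), 2 of 10 of adrenomedullin signalling, 2 of 11 of erythropoietin and iron, 1 of 13 of matrix, pH and chromatin, 1 of 16 of VEGF and angiopoietin signalling and 1 of 11 of other vascular genes. The last 3 of these shares are at or below that of all genes. Aldoc, for one, had 57.9, 149 and 55.1 CPM in these 3 libraries and 10.8 to 26.0 CPM in the other 4.

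The same 3 libraries also had the highest sums of the 6 collecting duct markers, 815, 1020 and 851 CPM against 434 to 552 CPM. The same held for the 5 thick ascending limb markers, with 6877, 15099 and 8860 CPM against 4788 to 6154 CPM in the others. These libraries had the lowest sums of the 7 proximal tubule markers, 6183, 6255 and 10613 CPM against 11055 to 16465 CPM. Single markers did not all follow their sums. Aqp2 and Avpr2 of the collecting duct were highest in these 3 libraries, while Scnn1g, Slc4a1, Atp6v1g3 and Aqp3 were not. Atp6v1g3 was lowest in DM-22 replicate 1, at 26.9 CPM, and highest in DM-22 replicate 2, at 62.0 CPM. Of the thick ascending limb markers, Egf was lowest in C replicate 2, at 685 CPM. Outside the tubules, the 8 endothelial markers were also highest in these libraries, with 667, 764 and 620 CPM against 433 to 563 CPM. So were the 6 macrophage markers, with 325, 192 and 196 CPM against 107 to 173 CPM. The part of this tissue composition in the levels of Hif1a, Egln3 and Ankrd37 was not tested. The genes most like Hif1a over the 7 libraries were Aqp6, a water channel of intercalated cells of the collecting duct, Tspan8 and Cyb561, with a Pearson r of 0.992, 0.990 and 0.989, and those most like Egln3 were Esrp1, an epithelial splicing factor, Csf2rb2 and Slc4a7, with 0.993, 0.991 and 0.989. For Ankrd37 they were Lpcat1, Kcnj5 and Fabp3, with 0.969, 0.969 and 0.966.

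**Figure D5:**
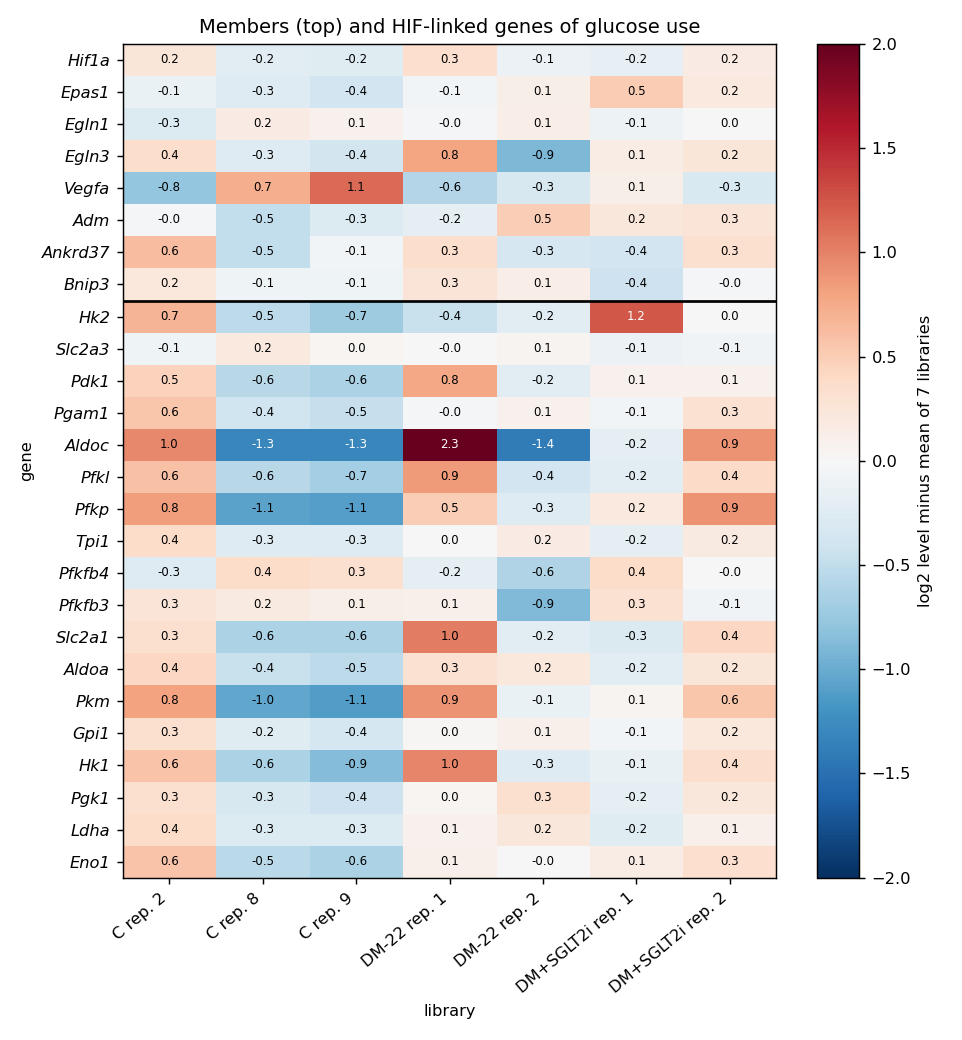
Log2(CPM + 0.5) minus the mean over the 7 libraries for the 8 tested members (above the line) and 18 HIF-linked genes of glucose use (below it), with the value printed and the color cut at 2 in either direction. C replicate 2, DM-22 replicate 1 and DM+SGLT2i replicate 2 are high for Hif1a, Egln3, Ankrd37 and 7 of the glucose genes, while Vegfa is high in C replicates 8 and 9.

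For the other members, the most similar genes were Mgea5, Vezt and Tab2 for Egln1, with a Pearson r of 0.999, 0.993 and 0.989, and Atg10, an autophagy enzyme, Ginm1 and Sf3b6 for Bnip3, with 0.988, 0.986 and 0.985. They were Dscaml1, Slc43a2 and Pogk for Epas1, with 0.961, 0.958 and 0.949, and Cdkn2c, an inhibitor of the cell cycle, Ripor1 and Epdr1 for Adm, with 0.973, 0.954 and 0.951. With 7 libraries and 13976 genes such values are a description of likeness and carry no p-value.

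Among the 21 genes of HIF subunits and oxygen sensing, Hif1a, Epas1, Egln1 and Egln3 included, 0 passed the adjusted threshold in any comparison in limma, with all libraries or without C replicate 2, and these are the fits that the counts of calls for all the lists refer to. Without adjustment, p was under 0.05 for 0 of them in DM-22 against C, where it was for 4.47% of all genes, and for 1, Epas1, in DM+SGLT2i against C, against 1.08%. When C replicate 2 was left out, it was so for 2 in DM-22 (Elob with a positive and Crebbp with a negative estimate), against 25.4% of all genes, and for 3 in DM+SGLT2i (Epas1 with a positive, Crebbp and Cul2 with negative estimates), against 17.9%. Vhl, which recruits the ligase that degrades HIF alpha, had 23.4, 21.9 and 20.1 CPM in C, 27.3 and 26.5 CPM in DM-22 and 19.0 and 23.2 CPM in DM+SGLT2i. Both DM-22 libraries were above all others, with a log2 fold change of 0.30 (-0.057 to 0.66, adjusted p = 0.804 in limma). Arnt, the constant partner, ranged from 35.8 to 49.5 CPM, with estimates of -0.21 in DM-22 and 0.054 in DM+SGLT2i against C.

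The 18 tested genes of mitophagy and stress, with Bnip3 and Ankrd37 among them, also held 0 calls. Ndrg1, a stress-responsive gene induced by hypoxia, had 1456, 1714 and 1747 CPM in C, 2710 and 3770 CPM in DM-22 and 3482 and 3341 CPM in DM+SGLT2i. All 4 diabetic libraries lay above all controls, as in 1.31% of all genes tested. The log2 fold change was 0.97 (0.26 to 1.68, adjusted p = 0.804 in limma) in DM-22 and 1.06 (0.35 to 1.77, adjusted p = 0.9997 in limma) in DM+SGLT2i, with unadjusted p-values of 0.0149 and 0.00983. Other estimates were as large or went the other way. Stc2, which encodes a secreted stanniocalcin, had 10.5, 2.34 and 2.35 CPM in C, 2.70 and 3.63 CPM in DM-22 and 7.42 and 7.82 CPM in DM+SGLT2i, with an estimate of 1.16 (-0.41 to 2.73, adjusted p = 0.881 in limma) between the diabetic groups. Without C replicate 2, its highest library, that interval was 0.67 to 1.65 (adjusted p = 0.441 in limma), and in DM+SGLT2i against C the estimate went from 0.86 to 1.51 (1.02 to 2.01, adjusted p = 0.0715 in limma). In DM-22 against C, the estimates were -0.98 (-2.11 to 0.15) for the transcriptional repressor gene Bhlhe41 and -0.81 (-1.69 to 0.071) for Ak4, which encodes a mitochondrial adenylate kinase. They were -0.91 (-2.23 to 0.41) and -1.11 (-1.82 to -0.40, adjusted p = 0.105 in limma) without C replicate 2. For Mxi1, a repressor of Myc, the estimate in DM+SGLT2i against DM-22 was -0.49 (-0.95 to -0.02, adjusted p = 0.881 in limma).

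The 18 tested genes of glucose use had positive estimates in 14 cases in DM-22 and in 15 cases in DM+SGLT2i against C, where 50.7% and 47.2% of all genes did. Their median log2 fold change was 0.28 in DM-22 and 0.26 in DM+SGLT2i, and 0.59 and 0.61 without C replicate 2, with 0 genes past the adjusted threshold in limma either way. The 6 tubular injury markers summed to 1844 and 1313 CPM in DM-22 and 2222 and 2360 CPM in DM+SGLT2i. In C replicates 8 and 9 they summed to 655 and 562 CPM. Most of each sum was Spp1, with 1719 and 1172 CPM in DM-22 and 2082 and 2223 CPM in DM+SGLT2i. Each of the 6 was higher in all 4 diabetic libraries than in these controls, Havcr1 at 2.17 to 16.9 CPM against 1.98 and 1.84 CPM. The collecting duct sums of all 4 diabetic libraries, 469 to 1020 CPM, were also above those of these controls, 437 and 434 CPM. The part of these markers in the list's estimates was not tested. Counting higher levels with an unadjusted p under 0.05, there were 0 such genes in each comparison with all controls, where 1.19% and 0.665% of all genes were so counted, and 8 and 5 without C replicate 2, against 10.5% and 8.68%. Pkm, the pyruvate kinase of glycolysis outside liver, had 906, 252 and 239 CPM in C replicates 2, 8 and 9, 967 and 475 CPM in DM-22 and 540 and 763 CPM in DM+SGLT2i. Here C replicate 2 resembled the diabetic libraries, as it did in Slc2a1, with 89.7, 45.8 and 45.7 CPM in C, 146 and 61.8 CPM in DM-22 and 58.1 and 95.7 CPM in DM+SGLT2i.

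The receptors of VEGF-A were steadier than their ligand. Kdr, the main signalling receptor, had 65.4 to 109 CPM in C, 63.2 and 96.1 CPM in DM-22 and 108 and 90.8 CPM in DM+SGLT2i, and Flt1, the decoy receptor, 74.2 to 91.0 CPM, 93.1 and 80.3 CPM, and 96.5 and 88.0 CPM. Among the 16 tested genes of VEGF and angiopoietin signalling there were 0 calls. Apln had 11.7, 13.9 and 13.1 CPM in C, 9.20 and 10.2 CPM in DM-22 and 11.1 and 11.5 CPM in DM+SGLT2i. All its diabetic libraries lay below all controls, as in 1.38% of all genes. Its estimate in DM-22 against C was -0.39 (-0.76 to -0.025, adjusted p = 0.804 in limma). Angptl4, a HIF- and fatty acid-responsive inhibitor of lipoprotein lipase, had an estimate of 1.02 in DM+SGLT2i against C (0.053 to 1.99, adjusted p = 0.9997 in limma), which was 0.95 (-0.18 to 2.08, adjusted p = 0.340 in limma) when C replicate 2 was left out, and its highest level, 80.7 CPM, was in the library with the adipose markers. Of the 10 tested genes of adrenomedullin signalling, 0 were called. Calcrl, the receptor chain that binds adrenomedullin together with Ramp2 or Ramp3, had estimates of -0.078 in DM-22 and 0.0052 in DM+SGLT2i against C on the log2 scale.

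Among 11 tested genes linked to erythropoietin and iron, 0 were called in limma. Hmox1, the heme oxygenase, had 47.0, 33.4 and 39.4 CPM in C, 67.5 and 78.8 CPM in DM-22 and 51.0 and 62.3 CPM in DM+SGLT2i. All its diabetic libraries exceeded all controls, as in 1.31% of all genes tested. Its log2 fold change was 0.87 (0.43 to 1.32, adjusted p = 0.804 in limma) in DM-22 and 0.51 (0.06 to 0.95, adjusted p = 0.9997 in limma) in DM+SGLT2i, with unadjusted p-values of 0.0027 and 0.0328. The erythropoietin receptor gene Epor followed single libraries rather than groups, with 6.10, 2.36 and 2.16 CPM in C, 11.2 and 1.83 CPM in DM-22 and 3.11 and 4.61 CPM in DM+SGLT2i. The remaining lists, 13 tested genes of matrix, pH and chromatin and 11 of other vascular genes, held 0 calls as well.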

How the data were processed

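Expression was measured by RNA sequencing in 7 kidney libraries, grouped by the sample labels into C (n = 3), DM-22 (n = 2) and DM+SGLT2i (n = 2). Libraries were made from 500 ng of total RNA with a directional kit. The submitters' processing notes name bcl2fastq, FastQC, Trim Galore, STAR and edgeR, without versions, and the build mm10. The read counter is not given in the sources used here. The authors deposited log2 values of normalized CPM for 17537 genes, with a small constant added before the logarithm, and 0 columns were left out. Subtracting the constant, 0.0395 CPM, gave back CPM. These were whole reads within 0.02 for 100% of the values up to 200 reads. The design had assumed CPM.

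The 13976 genes that reached 1 CPM in 2 or more libraries were fitted on log2(CPM + 0.5), all groups together, with limma 3.58.1 in R 4.3.3 (lmFit, eBayes with trend). P-values are two-sided and adjusted by the Benjamini-Hochberg method over all genes tested, with a threshold of 0.05. The pseudocount understates the fold change of low genes such as Ankrd37. A single value was also compared with an exact permutation test over libraries. Each library is 1 mouse. The labels state no pairing by replicate number, and the main fit used none. Deviations from the group mean correlated at -0.041 between DM-22 and DM+SGLT2i libraries of the same number. With 2 libraries per group this is a single value, which cannot show that no batch was shared. Replicates differed by more than read-sampling noise, so none were merged. Levels per kilobase used merged exons of GENCODE M21 on GRCm38, and promoters were matched to RefSeq by symbol. Python 3.11.15 with pandas 2.3.3, scipy 1.17.1 and matplotlib 3.10.9 was used for the rest.

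The members, pathway lists and marker lists were chosen with earlier results of these data known. Named in the text are all members, up to 3 genes per list, direction and comparison with the smallest limma p (not all are printed), the 3 genes most like each member, and a few genes of known role (Arnt, Aldoc, Pkm, Slc2a1, Kdr, Flt1, Calcrl and Epor) chosen after their values were seen. The alternatives were other pseudocounts, filters and scaling, the values as deposited, voom weights, fits of only the groups compared, a replicate block and leaving out libraries.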

Additional observations from a re-analysis of the deposited data

Results flagged for a closer look

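Epo in DM-22 replicate 1, at 0.558 CPM, lay far from the other 3 diabetic libraries, which were at 0.289 to 0.324 CPM: its gap to the nearest of them was 0.871 of the whole range of the group of 4. Such a gap can arise by chance, how often was not tested here, and the value rests on 31 reads. The same library had the highest sum of inner medulla and urothelium markers (476 CPM against 78.6 to 284 CPM in the other 6). Of this list, Slc14a2 (267 CPM), Aqp4 (109 CPM) and Akr1b3 were highest in this library. Upk1b, Upk2, Upk3a and Krt5 of the list were higher in DM+SGLT2i replicate 1 and in C replicate 2. The library also had the highest sum of thick ascending limb markers. The part of these markers in the Epo value was not tested.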

How the results depend on the processing

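Pseudocounts of 0.1 and 2, no filter or a filter of 5 CPM, the values as deposited and fits of only the groups compared turned no direction of a member and gave 0 calls, also over all genes. The replicate block gave 0 members and 0 genes in DM+SGLT2i against DM-22, with unchanged estimates (Bnip3 -0.41). Without C replicate 2, calls over all genes ranged up to 2 in DM-22, 17 in DM+SGLT2i and 28 in all diabetic libraries against C, from 0 when any other library was left out, and stayed at 0 between the diabetic groups. Members called stayed at 0 whichever single library was left out. Without C replicate 2 and DM-22 replicate 1 (chosen after seeing the data), limma called 742, 1765, 484 and 1666 genes and 2, 4, 1 and 3 members in DM-22 against C, DM+SGLT2i against C, DM+SGLT2i against DM-22 and all diabetic against C. The cause of these shifts was not tested.

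Some estimates near 0 changed sign, each with an interval that includes 0 with all libraries. The ranges that follow are log2 estimates over leaving out each library in turn, C replicate 2 with DM-22 replicate 1, and C replicate 2 with DM+SGLT2i replicate 1. In DM-22 against C, the estimate of Hif1a ran from -0.046 to 0.41, of Egln1 from -0.067 to 0.16, of Egln3 from -0.82 to 0.87 and of Ankrd37 from -0.36 to 0.33. In DM+SGLT2i against C, the estimate of Hif1a ran from -0.091 to 0.39, of Egln1 from -0.17 to 0.053, of Ankrd37 from -0.40 to 0.60 and of Bnip3 from -0.42 to 0.062. In DM+SGLT2i against DM-22, the estimate of Hif1a ran from -0.35 to 0.12, of Egln3 from -0.60 to 1.10, of Ankrd37 from -0.38 to 0.32 and of Adm from -0.24 to 0.42. In all diabetic libraries against C, the estimate of Egln1 ran from -0.12 to 0.10, of Egln3 from -0.27 to 0.58, of Ankrd37 from -0.29 to 0.44 and of Bnip3 from -0.12 to 0.17. With library totals in place of TMM factors, the reversed estimates were Egln1 -0.022 and Egln3 -0.058 in DM-22 against C, Egln1 0.0041 and Ankrd37 0.026 in DM+SGLT2i against DM-22, and Egln1 -0.020 in all diabetic libraries against C. With voom weights, Ankrd37 was reversed in DM-22 against C, at 0.012. Over all alternatives, 482 member estimates kept their direction and side of the threshold, 56 changed sign and 10 passed it, all 10 without C replicate 2 and DM-22 replicate 1. Epo and Ankrd37 rest on the fewest reads, 12 to 31 and 29 to 104 per library.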
